A study of Homo sapiens with 8 samples.

Results

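The microRNA machinery examined here comprised 10 genes chosen by name, AGO1, AGO2, AGO3, DICER1, DROSHA, DGCR8, XPO5, TNRC6A, TNRC6B and TNRC6C, out of 58735 genes listed in the count table. All 10 had enough reads for the test, which covered 15135 genes. Their counts were read in 8 RNA-seq libraries of EPC2-hTERT, a telomerase-immortalised human esophageal epithelial cell line that forms a layered epithelium when its surface is raised to the air. The 4 miR-155OE libraries came from a stable line made by lentiviral overexpression of miR-155-5p, and the 4 CTRL libraries came from cells whose genotype is given as control, without a statement of what vector they carry. Both groups were grown on inserts with 0.4 µm pores for 2 days, kept at 1.8 mM calcium for 5 days more, and then exposed to air. The labels describe 1 stable line, so any feature particular to that line is shared by its 4 libraries, and the labels do not say that the libraries are separate cultures. Every p-value below thus speaks of the spread among these 8 samples, part or all of which can be technical.

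A primary microRNA transcript is cut in the nucleus by the Microprocessor, in which DROSHA is the nuclease and DGCR8 the RNA-binding partner. XPO5 carries the hairpin to the cytoplasm, DICER1 cuts it to a short duplex, and an Argonaute protein keeps 1 strand as a guide to matching messenger RNAs. Argonaute binds a TNRC6 (GW182) protein, which brings in deadenylases and decay enzymes, so that the target is shortened, uncapped and destroyed. In stratified epithelia this pathway serves microRNAs known for roles in the balance between growth and differentiation.

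The overexpressed microRNA is shown first, because its seed was later searched for in the transcripts of its own machinery. Its mature RefSeq sequence (GRCh38.p14, chr21:25573983-25574006, plus strand) is given with the seed, bases 2 to 8, in capitals:
miR-155-5p: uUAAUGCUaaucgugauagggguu
Neither MIR155HG, the transcript from which the endogenous hairpin is cut, nor MIR155 had a read in any of the 8 libraries, which allows up to 3 reads, or 0.0572 to 0.0901 CPM (reads of a gene per 1 M reads counted, after TMM scaling), in each. These libraries do not measure mature microRNAs, so the level of miR-155-5p itself was not measured here.

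Library totals were 36.4 ± 3.21 M (mega) counts in miR-155OE and 40.0 ± 8.79 M in CTRL (SD, n = 4 each), and ranged over 33.4 to 52.7 M. The esophageal squamous markers were all tested, 12 of 12, with a summed level of 61294 to 76511 CPM in miR-155OE and 66626 to 78948 CPM in CTRL. Of 6 fibroblast markers 4 had 0 reads (COL1A2, COL3A1, DCN and LUM), and the list summed to 98.1 to 221 CPM in miR-155OE and 92.8 to 145 CPM in CTRL, with COL1A1 its top gene. The part of such markers in the results below was not tested. As in all bulk RNA, fewer cells of a kind and less RNA per cell cannot be told apart. Libraries that share a number deviated together from their group means, though weakly for number 3. Results are thus also given from a fit with the number as a block.

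The first comparison asked whether the genes that make and use microRNAs stood at other levels in cells carrying excess miR-155-5p. AGO2 averaged 1.42-fold its CTRL level and TNRC6A averaged 0.86-fold, each without overlap between the groups. DROSHA, DGCR8, XPO5 and DICER1, the genes of cutting and export, averaged 0.97-fold to 1.05-fold. AGO1 averaged 0.95-fold, AGO3 1.02-fold, TNRC6B 0.92-fold and the scarce TNRC6C 1.38-fold, all with overlapping groups. By edgeR's quasi-likelihood test on group alone with Benjamini-Hochberg adjustment over all tested genes at 0.05, 0 of the 10 genes changed, where 3.22% of all tested genes did, 2.17% higher and 1.05% lower. Unadjusted p was under 0.05 for 2 of the 10, AGO2 and TNRC6A, as for 19.3% of all tested genes. DESeq2 called 1 of the 10, AGO2, and 7% of the genes it tested. With the replicate block 1 of the 10, AGO2, was called higher and 0 lower, where 7.43% of all tested genes were higher and 5.17% lower, 12.6% in all. The groups did not overlap in 2 of the 10, AGO2, which was higher, and TNRC6A, which was lower. Over all tested genes they did not overlap in 11.4%, 6.16% higher and 5.25% lower. These shares put the machinery near the background of all genes. The median log2 fold change (miR-155OE over CTRL) of the 10 genes was 0.01, and that of all tested genes was −0.01.

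**Figure D1:**
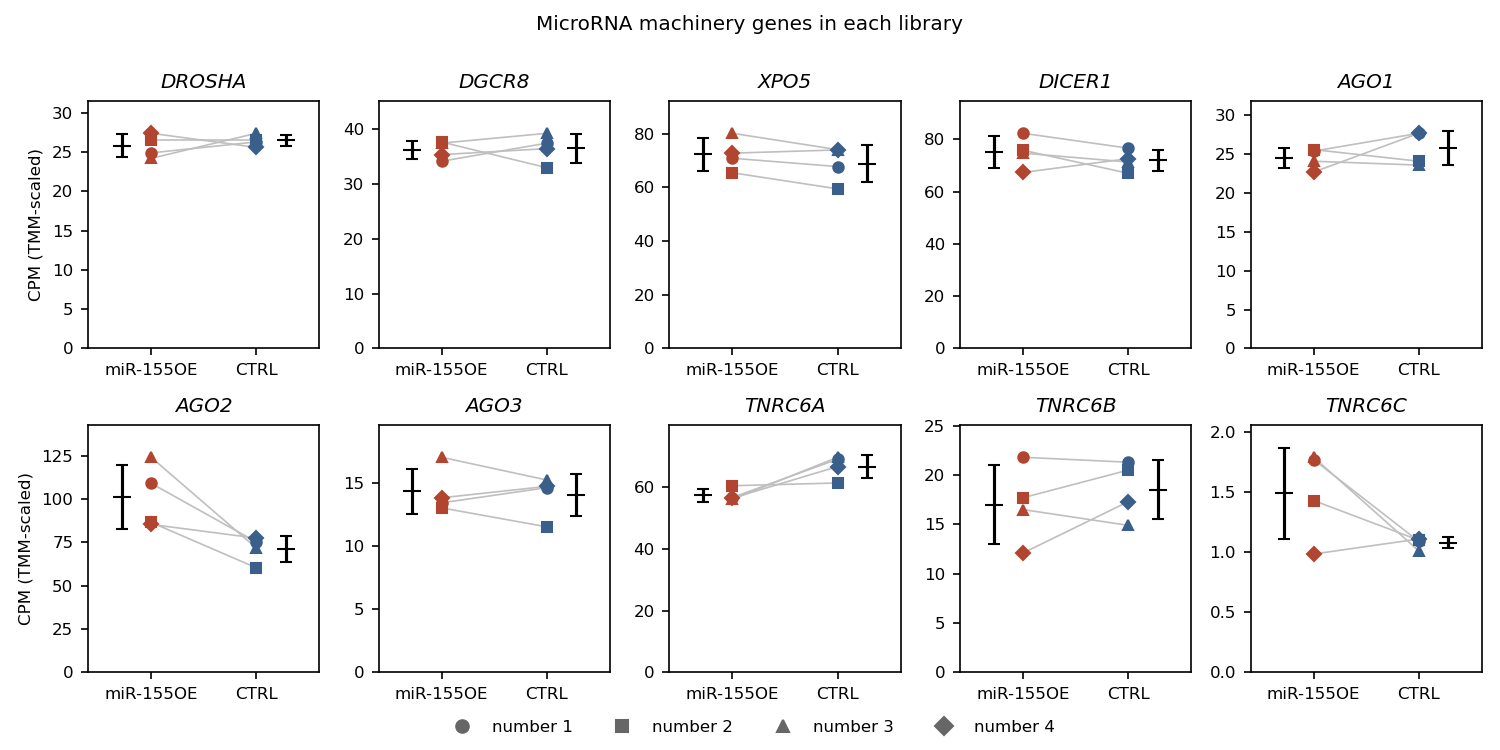
CPM (y axis, TMM-scaled, from 0) of the 10 machinery genes in each library, miR-155OE left and CTRL right, with grey lines joining libraries of the same number and black bars for the mean ± SD (n = 4). The groups part without overlap in AGO2, with 85.3 to 124 CPM in miR-155OE and 60.3 to 77.4 CPM in CTRL, and in TNRC6A, with 55.9 to 60.3 CPM in miR-155OE and 61.2 to 69.5 CPM in CTRL.

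The nuclear step showed no difference beyond the replicate spread. DROSHA (chr5:31400497-31532196, minus strand) had 24.9, 26.6, 24.2 and 27.4 CPM in miR-155OE replicates 1 to 4, against 26.3, 26.6, 27.4 and 25.6 CPM in CTRL replicates 1 to 4. DGCR8 (chr22:20080232-20111877, plus strand) had 34.2, 37.7, 37.5 and 35.4 CPM in miR-155OE, against 37.5, 33, 39.3 and 36.5 CPM in CTRL. The groups overlapped in both genes, and no library of either group was set apart from the rest. For DROSHA the log2 fold change was −0.04 (95% interval −0.19 to 0.11, edgeR adjusted p = 0.804). That of DGCR8 was −0.02 (95% interval −0.17 to 0.14, edgeR adjusted p = 0.938). The ratio of DROSHA to DGCR8 per kilobase of exon was 0.671 ± 0.0498 in miR-155OE and 0.683 ± 0.0492 in CTRL (SD, n = 4 each). DGCR8 messenger RNA is itself known to be cut by the Microprocessor at hairpins near its start. The annotated hairpin MIR3618 lies in an exon with untranslated bases in 3 of the 4 coding transcripts of DGCR8 (chr22:20085746-20085833). Another annotated hairpin, MIR1306, shares 85 bases with DGCR8 exons on the same strand. The rows of both hairpins in the count table held 0 reads in every library. Both share bases with DGCR8 exons on the same strand, so a 0 can come from how shared reads were counted. It says nothing of the hairpins themselves.

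The genes of export and dicing did not pass either. XPO5 (chr6:43522330-43576075, minus strand), the export receptor of hairpins, had 70.8, 65.4, 80.1 and 72.7 CPM in miR-155OE, against 67.7, 59.4, 74.0 and 73.9 CPM in CTRL. DICER1 (chr14:95086228-95158010, minus strand) had 82.3, 75.8, 74.7 and 67.3 CPM in miR-155OE, against 76.6, 67.0, 71.3 and 72.6 CPM in CTRL. Both genes were higher in 3 of 4 pairs by small amounts, and the groups overlapped. In log2 fold change XPO5 stood at 0.07 (95% interval −0.12 to 0.27, edgeR adjusted p = 0.721) and DICER1 at 0.06 (95% interval −0.10 to 0.23, edgeR adjusted p = 0.71). These intervals leave out a change of the size measured for AGO2, 0.51, in each of DROSHA, DGCR8, XPO5 and DICER1.

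AGO2, the Argonaute that can cut a fully matched target, had the lowest p and the largest log2 fold change of the 10 genes. AGO2 (ENSG00000123908, chr8:140520156-140635619, minus strand, in the long arm 8q) had 109, 86.5, 124 and 85.3 CPM in miR-155OE, against 75.2, 60.3, 71.7 and 77.4 CPM in CTRL. The lowest miR-155OE library lay above the highest CTRL library, replicates 1 and 3 of miR-155OE were the highest, and CTRL replicate 2 was the lowest. Means were 101 ± 18.6 CPM in miR-155OE and 71.1 ± 7.61 CPM in CTRL (SD, n = 4 each), which is 1.42-fold. The log2 fold change was 0.51 (SE 0.13, 95% interval 0.22 to 0.79), and it narrowly missed the threshold on group alone (edgeR adjusted p = 0.0571). With the replicate block it was 0.50 (SE 0.09) and passed (edgeR adjusted p = 0.00927), with AGO2 higher in 4 of 4 pairs, as were 18.8% of all tested genes. The log2 ratios within the pairs were 0.53, 0.52, 0.79 and 0.14 for numbers 1 to 4, so pair 4 differed least. In the authors' deposited table AGO2 has a log2 fold change of 0.51 and an adjusted p of 0.00666, and it is the 1 gene of the 10 called there, where 4.73% of the genes with an adjusted p are called. That share counts 8913 genes whose adjusted p is at its maximum and may stand for a missing value. The share among genes truly tested there can thus be higher. Without 1 library in turn the value on group alone ranged over 0.40 to 0.58 with edgeR adjusted p of 0.0216 to 0.14. It passed without miR-155OE replicate 2 (edgeR adjusted p = 0.0216) and without miR-155OE replicate 4 (edgeR adjusted p = 0.0497). With the block it was not called once replicate 1 was left out (edgeR adjusted p = 0.0553).

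**Figure D2:**
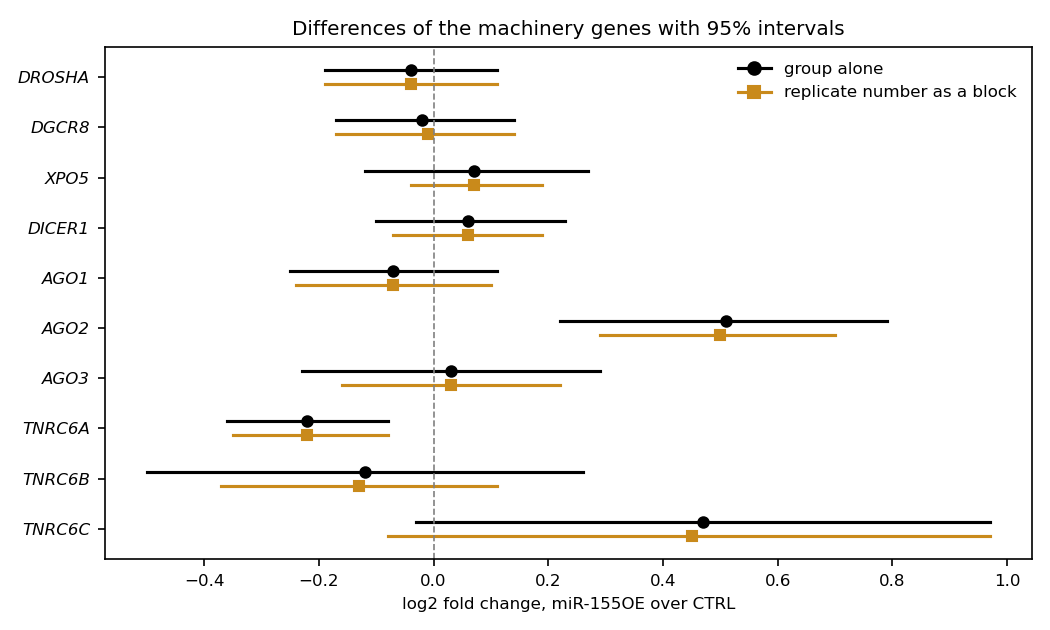
The log2 fold change (x axis, miR-155OE over CTRL) of each machinery gene with its 95% interval, on group alone (black circles) and with the replicate number as a block (ochre squares), each gene on its own row. AGO2 lies at 0.51 on group alone and 0.50 with the block, TNRC6A lies at −0.22 in both, and the intervals of the other 8 genes include 0.

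The other Argonautes did not pass the test. AGO1 (chr1:35869808-35930528, plus strand) had 25.4, 25.6, 24.1 and 22.7 CPM in miR-155OE, against 27.7, 24.1, 23.6 and 27.7 CPM in CTRL. AGO3 (chr1:35930718-36072500, plus strand), its neighbour on chromosome 1, had 13.4, 13.0, 17.0 and 13.8 CPM in miR-155OE, against 14.6, 11.5, 15.2 and 14.7 CPM in CTRL. The groups overlapped in both, and each was higher in 2 of 4 pairs. AGO1 stood at a log2 fold change of −0.07 (95% interval −0.25 to 0.11, edgeR adjusted p = 0.68) and AGO3 at 0.03 (95% interval −0.23 to 0.29, edgeR adjusted p = 0.925). AGO4, the remaining human Argonaute and not among the 10 genes, stood at 0.04 (edgeR adjusted p = 0.832). Differences between the Argonautes in their fold changes were not tested.

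Set on 1 scale per exon length, AGO2 supplied more than any other Argonaute transcript in every library. AGO2 took 61.6, 55.8, 62.2 and 56.6% of the summed Argonaute CPM per kilobase in miR-155OE, against 51.1, 47.6, 51.7 and 51.5% in CTRL. The shares did not overlap, and averaged 59.1 ± 3.31% in miR-155OE and 50.5 ± 1.91% in CTRL (SD, n = 4 each). The sum over AGO1 to AGO4 was 10.8 ± 1.4 CPM per kilobase in miR-155OE and 8.89 ± 0.668 in CTRL (SD, n = 4 each), and the lowest miR-155OE library, 9.51, was next to the highest CTRL library, 9.49. These shares follow from the AGO2 levels above and are no separate evidence. The ratio of AGO2 to DICER1 per kilobase was 1.05 ± 0.171 in miR-155OE and 0.767 ± 0.0531 in CTRL (SD, n = 4 each).

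**Figure D3:**
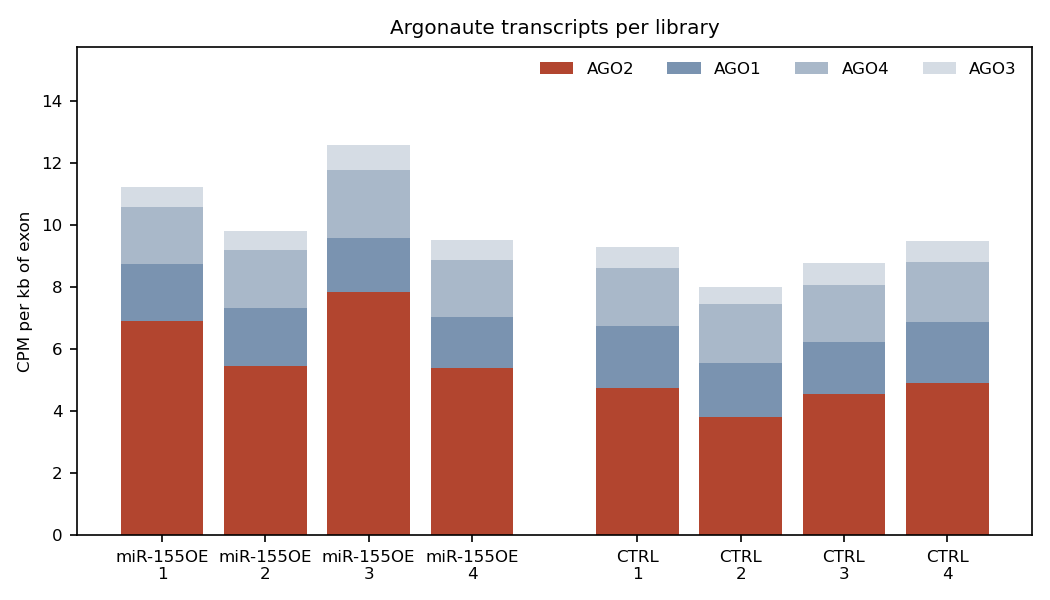
CPM per kilobase of exon (y axis, from 0) of AGO2, AGO1, AGO4 and AGO3 stacked for each library, with the 4 miR-155OE libraries left of the 4 CTRL libraries. The AGO2 part of the bar is taller in every miR-155OE library than in any CTRL library, while the other parts are of like height in both groups.

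AGO2 is the single member on chromosome 8, where genes of the 2 arms moved apart together in these libraries, so it was read beside its neighbours. Of 231 tested 8q genes above 4 CPM, 212 had a positive log2 fold change, with a median of 0.27, and 39 were called higher and 1 lower on group alone. AGO2 ranked 35 in that set, with 34 genes above it. Among the 20 nearest tested coding genes, 10 on each side and spanning −8.62 to 2.12 Mb from AGO2, 17 were positive, the median was 0.36, 4 were called higher, and 5 lay above AGO2. These neighbours were taken without a cut on level, and the 5 above AGO2 were scarce, with means of 1.01 to 2.81 CPM in miR-155OE. Of the neighbours above 4 CPM, the highest was CHRAC1 at 0.45, below AGO2. On the side towards the centromere, the 3 nearest were CHRAC1 at 0.45 (edgeR adjusted p = 0.0216), TRAPPC9 at 0.40 (edgeR adjusted p = 0.0433) and COL22A1 at 0.54 (edgeR adjusted p = 0.626). On the other side they were PTK2 at 0.18, DENND3 at 0.64 and SLC45A4 at 0.17, none of which passed.

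The level of AGO2 relative to its arm was then taken in each library, as its log2 level less the median of 230 other 8q genes, both set against the CTRL mean. It was 0.30, 0.12, 0.40 and 0.05 in miR-155OE, against 0.13, −0.23, 0.01 and 0.10 in CTRL. On this scale the groups overlapped, with miR-155OE replicate 4 below 2 of the CTRL libraries. The difference of the means was 0.21, smaller than the 0.51 of AGO2 itself, and an exact two-sided permutation test gave p = 0.143 (0.571 adjusted over the 4 chromosome 8 genes so tested), where the smallest p that 4 against 4 allows is 0.0286. This measure was chosen after the values had been seen. A p of this size does not show that AGO2 moved by the same amount as its arm. DNA copy number was not measured, and what part of the AGO2 difference goes with the arm was not tested further.

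**Figure D4:**
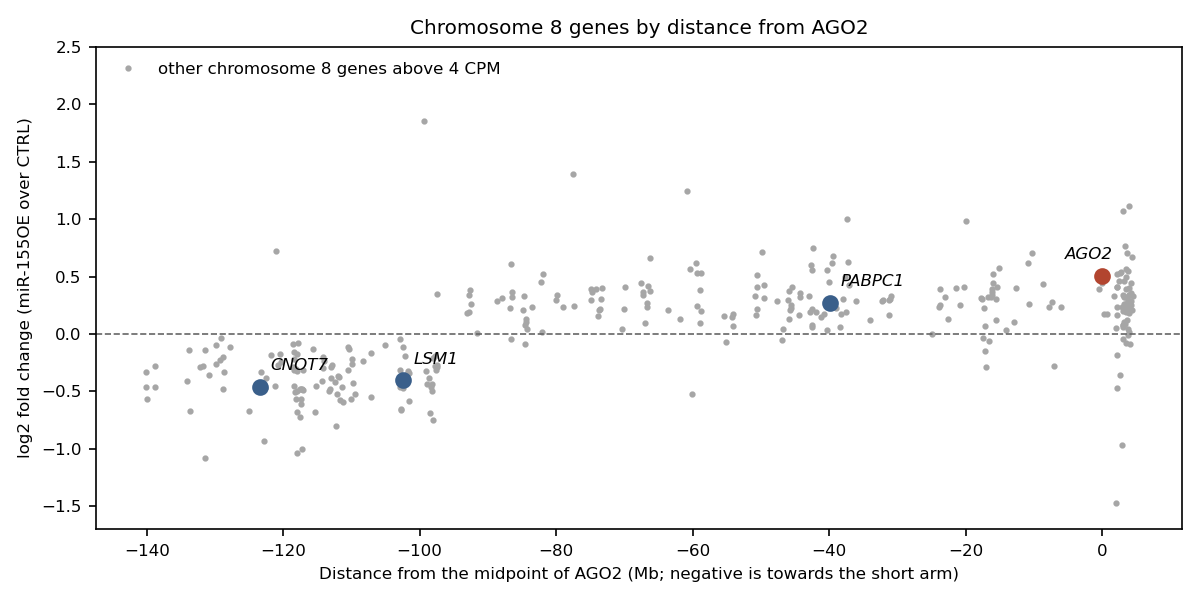
The log2 fold change (y axis, miR-155OE over CTRL, group alone) of the tested chromosome 8 genes above 4 CPM by distance in Mb from the midpoint of AGO2 (x axis, negative towards the short arm), with AGO2 in red, PABPC1, CNOT7 and LSM1 in blue and the other genes in grey. Most genes of the long arm lie above 0, with a median of 0.27, and most genes of the short arm lie below 0.

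The TNRC6 proteins join Argonaute to the decay machinery, and their 3 genes are given in turn. TNRC6A (ENSG00000090905, chr16:24610209-24827632, plus strand) had 56.5, 60.3, 55.9 and 56.3 CPM in miR-155OE, against 68.9, 61.2, 69.5 and 66.5 CPM in CTRL. The groups did not overlap, but miR-155OE replicate 2 and CTRL replicate 2 were within 1 CPM of each other. Means were 57.2 ± 2.04 CPM in miR-155OE and 66.5 ± 3.78 CPM in CTRL (SD, n = 4 each). Its log2 fold change was −0.22 (SE 0.06, 95% interval −0.36 to −0.08), which did not pass on group alone (edgeR adjusted p = 0.0863) or with the block (edgeR adjusted p = 0.0511), although the value was lower in 4 of 4 pairs, as were those of 16.9% of all tested genes. The log2 ratios within the pairs were −0.29, −0.02, −0.31 and −0.24 for numbers 1 to 4. With the block and without replicate 2 it passed, at −0.28 (edgeR adjusted p = 0.0164), and no other alternative called it.

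TNRC6B (chr22:40044817-40335808, plus strand) varied more among libraries, with 21.8, 17.7, 16.5 and 12.1 CPM in miR-155OE, against 21.3, 20.5, 14.9 and 17.3 CPM in CTRL. The groups overlapped, and the log2 fold change was −0.12 (95% interval −0.50 to 0.26, edgeR adjusted p = 0.762). TNRC6C (chr17:77959240-78108835, plus strand) was near the lower end of detection, with 36 to 72 reads per library. It had 1.77, 1.43, 1.79 and 0.985 CPM in miR-155OE, against 1.09, 1.10, 1.01 and 1.11 CPM in CTRL. It was higher in 3 of 4 pairs, and miR-155OE replicate 4 lay below every CTRL library. Its log2 fold change was 0.47 (95% interval −0.03 to 0.97, edgeR adjusted p = 0.292), nearly as large as that of AGO2 but with a wider interval. TNRC6C shares 12.9% of its exon bases with the antisense gene TNRC6C-AS1, and the strand setting of the counting is not given in the sources used here, so reads of the pair cannot be told apart there. TNRC6C-AS1 had 504 reads over all libraries, where TNRC6C had 389, and stood at a log2 fold change of 0.16.

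Per kilobase, the summed TNRC6 level was 5.62, 5.68, 5.31 and 5.05 in miR-155OE, against 6.50, 5.86, 6.21 and 6.11 in CTRL. The sums did not overlap, with means of 5.41 ± 0.291 in miR-155OE and 6.17 ± 0.264 in CTRL (SD, n = 4 each). TNRC6A made up most of that sum, 81.9 ± 3.49% in miR-155OE and 83.4 ± 2.53% in CTRL (SD, n = 4 each).

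Ordered by CPM per kilobase in miR-155OE, the highest was XPO5 at 8.48 ± 0.718, followed by AGO2 at 6.38 ± 1.17, DICER1 at 6.10 ± 0.5, DGCR8 at 4.95 ± 0.228 and TNRC6A at 4.43 ± 0.158 (SD, n = 4 each). DROSHA followed at 3.31 ± 0.19, AGO1 at 1.76 ± 0.0945, TNRC6B at 0.85 ± 0.2, AGO3 at 0.676 ± 0.0848 and TNRC6C at 0.134 ± 0.0339 (SD, n = 4 each). In CTRL the order of the upper genes was XPO5 at 8.07 ± 0.81, DICER1 at 5.85 ± 0.324, TNRC6A at 5.15 ± 0.292, DGCR8 at 5.00 ± 0.36 and AGO2 at 4.49 ± 0.48 (SD, n = 4 each), and the lower 5 genes kept the same order. The gaps between AGO2 and DICER1 and between TNRC6B and AGO3 in miR-155OE, and between TNRC6A and DGCR8 in CTRL, were smaller than the larger SD of the pair. The divisor was the length of all annotated exons of a gene, which exceeds that of a single transcript. For DGCR8 it was 7315 bases, against 4419 in 1 of its annotated transcripts, and for DICER1 12294 against 10277. The order, ratios and shares between genes thus depend on the length used, while comparisons of 1 gene between the groups do not. TNRC6B was the most variable of the genes above 10 CPM, with a coefficient of variation of 23.5% in miR-155OE and 16.2% in CTRL.

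The 3′ UTRs of the 10 genes, taking the longest 1 that GENCODE 29 annotates for a gene, were searched on the transcript strand only for matches to the miR-155-5p seed. A first kind of match was AGCATTA, which pairs with bases 2 to 8. The other kind was GCATTAA, and where the 2 kinds overlap they were counted as 1. A match of either kind was present in 2 of the 10 genes, 20%, against 2199 of 12512 tested coding genes, 17.6%. The median UTR was 4130 bases in the machinery and 1380 bases in the tested coding genes, and longer UTRs hold more matches of any short word. AGO3 had 3 and TNRC6B had 2. Each is shown in a window of 30 bases (GRCh38, plus strand, 5′ to 3′) with the match in capitals, since these are the places in the machinery that carry the letters:
AGO3, chr1:36063182-36063211: ttatatagtggGCATTAAagacagtcttta
AGO3, chr1:36063405-36063434: tcacatttttcAGCATTAggattaagatac
AGO3, chr1:36070678-36070707: agctggcatctGCATTAAtttcaatgagaa
TNRC6B, chr22:40324098-40324127: tccattgggctGCATTAAgatgaacagagt
TNRC6B, chr22:40328980-40329009: ttcatgtgtatGCATTAActatacttctta
Neither gene passed the test in miR-155OE against CTRL, at 0.03 for AGO3 and −0.12 for TNRC6B. The 3′ UTRs of AGO2 and TNRC6A, 11888 and 2420 bases long, held none of these letters. A match is a description of sequence and not a measured site.

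The genes that work beside the core machinery were read as 4 lists of proteins and 1 of host transcripts. Cofactors of primary microRNA cutting had 21 of 23 genes tested, of which 0 passed on group alone by edgeR, where 3.22% of all tested genes did. An unadjusted p under 0.05 was reached by 0, against 19.3% of all tested genes. DESeq2 called 0, against 7% of the genes it tested. With the block, ADARB1, a double-stranded RNA editing enzyme, was called higher, at 33.2 ± 3.84 CPM in miR-155OE and 28.4 ± 3.43 CPM in CTRL (SD, n = 4 each; log2 fold change 0.22, edgeR adjusted p = 0.0359). It was not called in any of the 4 blocked fits that leave out 1 number (edgeR adjusted p of 0.0593 to 0.173), and 1 call among 21 genes compares with 12.6% of all tested genes. The cap-binding gene NCBP1 at 0.14, SAFB2 at −0.19, and the helicases and heterogeneous ribonucleoproteins of the list did not pass in either fit, and the median of the list was −0.01. LIN28A and LIN28B, known for blocking let-7 processing, had 1 read each over all libraries and were not tested.

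Of the 21 partners of export, dicing and loading, 0 passed on group alone by edgeR, where 3.22% of all tested genes did. An unadjusted p under 0.05 was reached by 3 (19.3% of all tested genes), and DESeq2 called 1 (7% of the genes it tested). With the block 2 of the 21, RAN and AJUBA, passed, against 12.6% of all tested genes, so the list held no more calls than its background. RAN, the GTPase that drives nuclear export, had 169, 165, 196 and 196 CPM in miR-155OE, against 143, 157, 162 and 164 CPM in CTRL, without overlap (block log2 fold change 0.21, edgeR adjusted p = 0.0372). AJUBA, a LIM-domain protein that is known to bind Argonaute and to act in cell junctions, had 183, 210, 189 and 161 CPM in miR-155OE, against 219, 225, 236 and 221 CPM in CTRL, also without overlap (block log2 fold change −0.28, edgeR adjusted p = 0.0227). In the 4 blocked fits that leave out 1 number, RAN stayed called in 1 (edgeR adjusted p of 0.0206 to 0.178) and AJUBA in 2 (edgeR adjusted p of 0.0103 to 0.108). Its relative WTIP stood at −0.21 and did not pass in either fit. The median of the list was 0.01.

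Among 32 genes of deadenylation, decapping and decay, 1 passed on group alone, where 3.22% of all tested genes did. CNOT7, a catalytic deadenylase of the CCR4-NOT complex, had 52.9, 65.8, 53.4 and 71.1 CPM in miR-155OE, against 78.4, 79.6, 92.5 and 83.7 CPM in CTRL. Every miR-155OE library lay below every CTRL library, and replicates 1 and 3 of miR-155OE were lowest. CNOT7 fell by 0.46 on the log2 scale (SE 0.10, edgeR adjusted p = 0.0445), and it was no longer called without miR-155OE replicate 1 or 3 or without any 1 of the 4 CTRL libraries (edgeR adjusted p of 0.0719 to 0.122). With the block, 2 of the 32 genes were called higher and 4 lower, where 7.43% of all tested genes were higher and 5.17% lower. The higher ones were PABPC1, the main cytoplasmic poly(A)-binding protein, at 0.27 (edgeR adjusted p = 0.0254), and LSM14A, a P-body protein, at 0.19 (edgeR adjusted p = 0.0369). The lower ones besides CNOT7 were LSM1, of the ring that promotes decapping, at −0.41 (edgeR adjusted p = 0.0144), the helicase MOV10 at −0.37 (edgeR adjusted p = 0.0327) and PABPC4 at −0.20 (edgeR adjusted p = 0.0296). None of the 6 was called with the block once number 1 was left out (edgeR adjusted p of 0.0627 for LSM1 to 0.201 for LSM14A). CNOT7 and LSM1 stayed called in the other 3 such fits, PABPC1, MOV10 and PABPC4 in 1 each, and LSM14A in 0. The median of the list was 0.03.

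CNOT7 and LSM1 lie on the short arm 8p and PABPC1 lies on 8q, and they are the 3 genes of the 89 in the 4 protein lists that lie on chromosome 8. All 3 passed with the block, as did 7 of the 86 genes elsewhere and 12.6% of all tested genes. Block calls were common on the chromosome, with 85 of 180 tested 8p genes lower and 135 of 351 tested 8q genes higher. Set against the median of their arm in each library, the differences were −0.07 for CNOT7, −0.01 for PABPC1 and −0.02 for LSM1. Exact two-sided permutation p was 0.314, 0.914 and 0.771 over 4 against 4 libraries (0.629, 0.914 and 0.914 adjusted over the 4 genes so tested). The smallest p that 4 against 4 allows is 0.0286, and the measure was chosen after the values had been seen. A large p here does not show that a gene moved by the same amount as its arm. The 8p median itself was −0.49, −0.20, −0.58 and −0.28 in miR-155OE replicates 1 to 4, and the 8q median was 0.32, 0.17, 0.41 and 0.22, both set against the CTRL mean. LSM1 shares 11.7% of its exon bases with BAG4 on the opposite strand, which stood at −0.47. It shares 26.7% with the antisense gene AC084024.3, which had 76 reads over all libraries where LSM1 had 6861.

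In the list of microRNA turnover and RNA-binding partners, 1 of 15 tested genes passed on group alone, where 3.22% of all tested genes did. The gene that passed had the largest difference among the protein lists. IGF2BP3, an oncofetal RNA-binding protein that protects bound messenger RNAs, had 30.8, 24.8, 30.8 and 24.9 CPM in miR-155OE, against 15.2, 16.2, 15.9 and 16.3 CPM in CTRL. The CTRL libraries lay close together and all 4 miR-155OE libraries lay well above them. IGF2BP3 rose by 0.81 on the log2 scale (SE 0.09, edgeR adjusted p = 0.0025), and it passed under all 17 alternatives. MALSU1, which shares 17.9% of the exon bases of IGF2BP3 on the opposite strand, stood at −0.20. The paralog IGF2BP1 had 0 reads and IGF2BP2 did not pass. FMR1, an RNA-binding protein of the same list, had 40.6 ± 2.08 CPM in miR-155OE and 35.6 ± 2.02 CPM in CTRL (SD, n = 4 each) and missed the threshold in both fits (edgeR adjusted p = 0.161, and 0.0546 with the block). FXR1, its relative, stood at −0.17 and did not pass. ZSWIM8, a ligase adaptor that acts in microRNA turnover, did not pass in either fit.

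Host transcripts, from which microRNA hairpins are cut, leaned lower. Of 21 listed, 15 were tested, and 14 of these 15 had a negative log2 fold change, with a median of −0.45. The exception was MCM7 at 0.01, a coding replication gene that hosts hairpins in its introns, and without it the median of the remaining 14 was −0.49. Among 1684 tested noncoding transcripts of the same annotated types, 55.8% were negative and the median was −0.06. The largest falls were in scarce hosts that passed in neither fit. MIR17HG and MIR222HG, both at −0.81, averaged 0.838 and 1.19 CPM in CTRL, and MIR503HG, at −0.72, averaged 0.791 CPM. In MIR222HG and MIR503HG a single library, CTRL replicate 3, was highest, at 2.10 and 1.20 CPM. On group alone 1 of the 15 passed, where 3.22% of all tested genes did. MIR31HG had 22.2, 25.5, 24.1 and 23.6 CPM in miR-155OE, against 32.0, 30.2, 36.4 and 32.1 CPM in CTRL. The groups did not overlap, and MIR31HG fell by 0.45 on the log2 scale (SE 0.08, edgeR adjusted p = 0.0155). Without miR-155OE replicate 1 it was no longer called (−0.42, edgeR adjusted p = 0.0593). MIR31HG shares 40.7% of its exon bases with the pseudogene IFNWP19 on the opposite strand. IFNWP19 had 63 reads over all libraries where MIR31HG had 8760.

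With the block MIR34AHG and MIRLET7BHG were also called lower, which makes 3 of 15, where 5.17% of all tested genes were lower. In the 4 blocked fits that leave out 1 number, MIR34AHG was called in 0 (edgeR adjusted p of 0.0817 to 0.116) and MIRLET7BHG in 2 (edgeR adjusted p of 0.0211 to 0.0671). MIR34AHG had 2.16, 2.16, 2.43 and 2.41 CPM in miR-155OE, against 2.63, 4.14, 4.18 and 3.15 CPM in CTRL (block log2 fold change −0.61, edgeR adjusted p = 0.0395). MIRLET7BHG had 7.27, 9.99, 7.05 and 6.73 CPM in miR-155OE, against 9.62, 12.6, 14.2 and 9.16 CPM in CTRL (block log2 fold change −0.55, edgeR adjusted p = 0.0191). MIR34AHG did not overlap between the groups, while miR-155OE replicate 2 overlapped CTRL in MIRLET7BHG. MIR205HG, host of the epithelial microRNA miR-205 and the most abundant of the list, had 254 ± 24.1 CPM in miR-155OE and 310 ± 48.4 CPM in CTRL (SD, n = 4 each) and did not pass (log2 fold change −0.29, edgeR adjusted p = 0.199). Mature 5p sequences of miR-31, miR-34a and the let-7 hairpins in the 3 hosts that passed in either fit are given from RefSeq (GRCh38.p14), with the seed (bases 2 to 8) in capitals, to show which seeds these transcripts carry:
miR-31-5p: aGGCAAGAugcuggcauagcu
miR-34a-5p: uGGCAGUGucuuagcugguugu
let-7a-5p: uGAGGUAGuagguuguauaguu
let-7b-5p: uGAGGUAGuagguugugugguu
The pair of let-7 microRNAs in MIRLET7BHG share a seed, and the other 2 each have their own. None of these mature microRNAs was measured in these libraries, and the level of a host transcript is not the level of its microRNA.

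**Figure D5:**
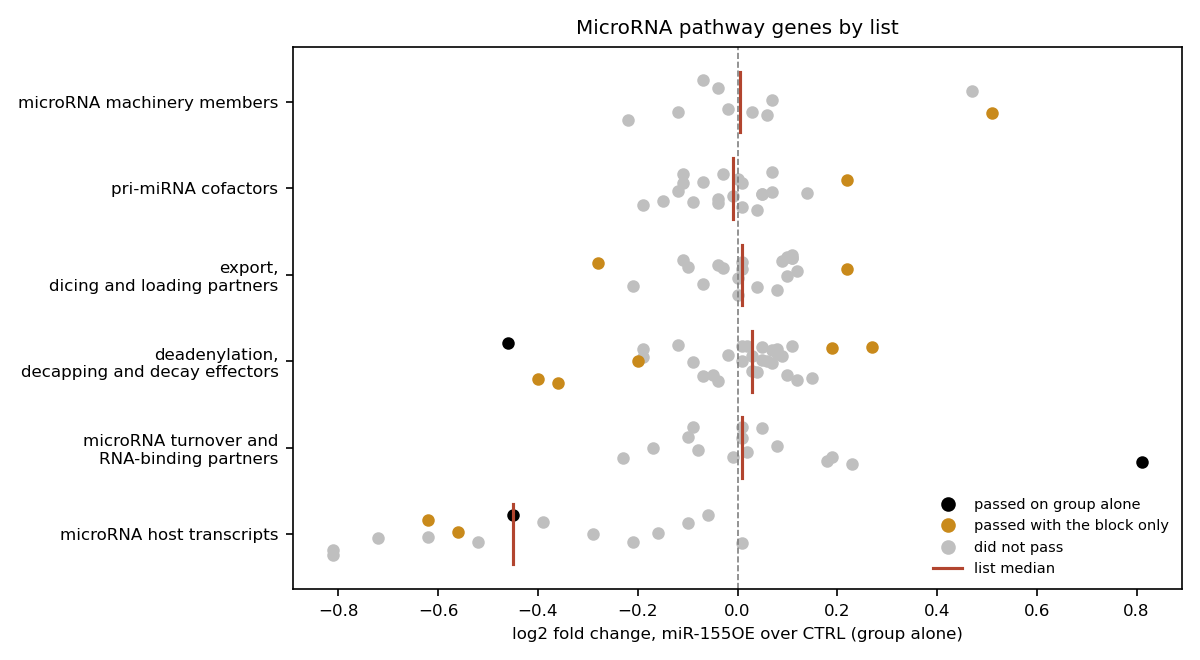
The log2 fold change (x axis, miR-155OE over CTRL, group alone) of each tested gene, in rows for the 10 machinery genes and the 5 pathway lists, with black points for genes that passed on group alone, ochre for those that passed with the block only, grey for the rest and a red line at each median. The protein lists have medians of −0.01 to 0.03, and the microRNA host transcripts have a median of −0.45.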

How the data were processed

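Whole-number raw counts per Ensembl gene were deposited for the 8 libraries, with gene positions, per the file headers. Per the submitters' processing notes HISAT2 2.0.5, featureCounts 1.5.0-p3 and DESeq2 were used on GRCh38, and no strand setting is given in the sources used here. A second table deposited by the authors holds a normalised signal per library, a log2 fold change and p-values with adjusted p-values, of which only the count of calls and the values of genes named here were used.

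The fits used edgeR 4.0.16 under R 4.3.3 (low counts removed by filterByExpr, scaling by TMM, quasi-likelihood F test of miR-155OE against CTRL on group alone, Benjamini-Hochberg adjustment over 15135 genes at 0.05). SEs and 95% intervals were derived from the fold change and its F statistic and so restate the test. CPM values use TMM-scaled library sizes, and levels between genes are divided by the deposited exon length. Intervals and the floor of 3 reads cover no more than the spread of these libraries and counting error. DESeq2 1.42.0, limma 3.58.1, scipy 1.17.1, pandas 2.3.3, numpy 2.4.6, matplotlib 3.10.9 and Python 3.11.15 were also used. The edgeR fit on group alone was tested on simulated data. It recovered 67 of 100 genes changed 1.5-fold and 93 of 100 changed 2-fold, with 9 false calls.

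To check the pairing, each library's deviation from its group mean was correlated, over 10267 genes, with that of the library of the same number in the other group. The values were 0.578, 0.497, 0.184 and 0.607 in the order of the numbers, all over 0.1, and the replicate number was used as a pairing. Number 3 was the weak pair, since miR-155OE replicate 3 correlated more with CTRL replicate 4, at 0.399, and CTRL replicate 3 more with miR-155OE replicate 4, at 0.203. Numbers 1 and 2 also correlated with each other across the groups, at 0.275 and 0.267. Each correlation of number 1 or 2 with number 3 or 4 was negative. The labels do not say what libraries of a number share. Genes are not independent replicates. Within groups, chi-square over its degrees of freedom was 14.4 to 74.8 for any pair of libraries, so none was counted as a repeat. Of 58735 gene IDs, all were in GENCODE 29, and 58724 had the same start and end there. Chromosome 8 arms were parted at 45 Mb.

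The members, gene lists and tests were chosen with earlier results of these data known. Named beside the members were, of each list, the genes past the threshold on group alone (or the 3 with the lowest p where fewer than 3 passed), those past it with the block, and the 3 nearest genes on each side of AGO2. MIR205HG, MIR17HG, MIR222HG, MIR503HG, MCM7, LIN28A, LIN28B, IGF2BP1, IGF2BP2, ZSWIM8, overlapping genes and AGO4 were added after their values were seen. Alternatives were the block, other scalings, no filter, DESeq2 and leaving out each library or number.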

Additional observations from a re-analysis of the deposited data

Results flagged for a closer look

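In 6 of 56 groups of 4 libraries tested, 1 library stood apart from the other 3 by Dixon's criterion, which chance meets in about 1 in 20 groups. In 5 of the 6 that library was miR-155OE replicate 2. It had the highest miR-155OE level of TNRC6A, at 60.3 CPM where the others had 55.9 to 56.5. It was also the highest for WTIP, at 14.7 CPM against 12.6 to 13.0 in the others. MOV10 had 20.9 CPM there against 14.6 to 15.5. MIRLET7BHG had 9.99 CPM there against 6.73 to 7.27. LSM14A was lowest there, at 161 CPM against 179 to 182. For the first 4 genes that library lay nearer to the CTRL level than its fellows, and so did LSM14A. The last was TNRC6C in CTRL replicate 3, at 1.01 CPM where the other CTRL libraries had 1.09 to 1.11, a gap of a few reads.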

How the results depend on the processing

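With the replicate number as a block the calls were 1908 over all genes (488 on group alone), 1 of the machinery, 1 cofactor, 2 export and loading partners, 6 decay effectors and 3 hosts. With the block and without number 1, 2, 3 or 4, decay effectors numbered 0, 4, 3 and 2. The blocked fit without number 1 called 623 genes, 0 of the machinery, 0 cofactors, 0 partners and 1 host. Without number 2 it called 2059 genes, 2 of the machinery, 2 partners and 2 hosts. Without number 3 it called 1389 genes, 1 of the machinery, 1 partner and 2 hosts, and without number 4 it called 971 genes and 1 of the machinery. No filter on low counts gave 927 genes, 1 of the machinery, 2 decay effectors and 2 hosts. DESeq2 gave 1202 genes, 1 of the machinery, 1 partner, 3 decay effectors and 3 hosts. Leaving out 1 library on group alone gave 125 (without miR-155OE replicate 1) to 1274 genes (without miR-155OE replicate 2), 0 to 1 of the machinery, 0 to 1 partner, 0 to 3 decay effectors and 0 to 2 hosts.

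The small differences of 5 machinery genes changed sign or reached 0. With the block, AGO1 was 0.00 without number 4, AGO3 was −0.02 and −0.01 without numbers 2 and 3, DROSHA was 0.01 without number 3, and DGCR8 was 0.03 and 0.01 without numbers 1 and 3. On group alone leaving out 1 library moved AGO3 over −0.06 to 0.07 (−0.05 without CTRL replicate 2), DGCR8 over −0.06 to 0.02 (0.01 without miR-155OE replicate 1) and TNRC6B over −0.26 to 0.02. AGO2 was positive and TNRC6A negative under all 17 alternatives, and AGO2 passed in 8 of them. The cause of these shifts was not tested. TNRC6C, with 36 to 72 reads, is limited by depth.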
